A study of Mus musculus with 12 samples.

Results

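Lyz1, Defa24, Defa30, Reg3b, Reg3g, Reg3a, Mmp7, Itln1 and Ang4, a set of 9 Paneth cell and epithelial antimicrobial genes, were examined in RNA-seq of B cells purified from Peyer's patches (PP), the lymphoid follicles of the small intestine. The genes were chosen by name as secreted antimicrobial proteins of the intestinal epithelium or as the enzyme that matures them, and all 9 were found among the 36175 genes of the table. The mice were male C57BL/6JHsd wild-type animals of 10 to 12 weeks of age. In 6 stroke mice, which the labels call brain injury, the middle cerebral artery was occluded for 1 h and then reperfused, and 6 sham controls had the same operation without the occlusion of that artery. PP B cells were collected 18 h after surgery, with 1 library for each mouse, by magnetic depletion of other cells and then by CD45 beads. According to the methods, the first of these steps left some intestinal epithelial and endothelial cells in the preparation, and both steps together gave nearly pure B cells. The model is limited to young males and to B cells still present in PP after surgery.

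Paneth cells sit at the base of the small intestinal crypts and release granules that hold lysozyme (Lyz1), α-defensins (the Defa genes) and other proteins that act on bacteria. Mmp7 is the matrix metalloproteinase that cleaves mouse pro-α-defensins to their active form. Ang4 is an angiogenin with microbicidal activity, and Itln1 is a lectin that binds microbial glycans. Reg3b, Reg3g and Reg3a are C-type lectins that bind bacterial cell walls and are made by enterocytes and Paneth cells, where microbial signals through MyD88 and the cytokine IL-22 induce them. B cells are not a known source of these proteins.

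The genes differ in how far their reads can be told from those of related genes. On GRCm38 the protein-coding gene Lyz1 lies at chr10:117287797-117292868 beside Lyz2, the lysozyme gene of macrophages and neutrophils, at chr10:117277331-117282321. Of the distinct stretches of 31 bases in the Lyz1 transcripts, the length that kallisto compares by default, 34.2% also occurred in Lyz2 and in no other gene. Defa24 (chr8:21734494-21735471) shared 57.1% of these stretches with 30 other genes, and Defa30 (chr8:21134642-21135598) shared 70.4% with 34. Each of them shared most with the other, so their separate values are uncertain. Reg3b (chr6:78370657-78373466), Reg3g (chr6:78466269-78468872) and Reg3a (chr6:78380709-78383827) lie near each other on chromosome 6, and no more than 0.446% of their stretches were shared. Mmp7 (chr9:7692090-7699585) overlaps the antisense gene AV064505, which held 9.06% of its stretches, and whether the counting used strand is not given in the sources used here. Itln1 (chr1:171518122-171535294) shared 3.80% with Gm9765, and Ang4 (chr14:51763878-51773590) shared 13.8%, mostly with Ang5.

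The upstream sequences are shown because values of the 3 Reg3 genes were correlated between mice and those of Lyz1 were read beside its neighbour Lyz2. They also show which of these upstream sequences are near copies of each other. The printed windows are the 120 bases before the RefSeq start of each gene on GRCm38.p6, read 5′ to 3′ along the gene. RefSeq starts can differ from the GENCODE positions given above. By those positions, the Reg3b window lies inside its gene, and the windows of Lyz2 and Defa30 overlap theirs. Capitals mark matches to TATAAA or CTTTGAT on either strand.
Lyz1 (chr10:117292869-117292988, minus strand): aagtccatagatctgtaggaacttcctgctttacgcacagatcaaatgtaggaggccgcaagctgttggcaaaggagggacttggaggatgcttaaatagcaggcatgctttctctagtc
Lyz2 (chr10:117282273-117282392, minus strand): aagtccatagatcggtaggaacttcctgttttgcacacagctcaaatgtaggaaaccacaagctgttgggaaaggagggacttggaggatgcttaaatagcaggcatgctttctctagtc
Reg3b (chr6:78370765-78370884, plus strand): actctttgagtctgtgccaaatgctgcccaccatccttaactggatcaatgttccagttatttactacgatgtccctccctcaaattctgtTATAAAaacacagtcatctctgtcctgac
Reg3g (chr6:78468875-78468994, minus strand): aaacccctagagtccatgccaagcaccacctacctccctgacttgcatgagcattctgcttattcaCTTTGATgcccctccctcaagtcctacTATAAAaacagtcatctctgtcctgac
Reg3a (chr6:78380589-78380708, plus strand): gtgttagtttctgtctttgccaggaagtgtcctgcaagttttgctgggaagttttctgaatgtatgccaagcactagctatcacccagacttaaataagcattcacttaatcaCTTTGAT
Defa30 (chr8:21134530-21134649, plus strand): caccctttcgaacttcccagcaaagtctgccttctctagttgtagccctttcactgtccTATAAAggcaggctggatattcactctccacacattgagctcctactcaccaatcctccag
The Lyz1 and Lyz2 windows were identical at 92.5% of aligned positions, and the last 50 bases before the start were the same in both. Reg3b and Reg3g were identical at 70.5% of aligned positions. Reg3b and Reg3a were identical at 47.6%, Reg3g and Reg3a at 45.6%, and Lyz1 and Reg3b, genes of different families, at 46.0%. The low figure for Reg3g and Reg3a does not show that their upstream sequences are unrelated. Both windows hold tgccaagcac and, further along, CTTTGAT, but at different distances from the start, so the alignment compared shifted windows. These figures depend on the RefSeq start from which each window is counted. TATAAA stood 29 bases before the start in Reg3b and 27 bases before it in Reg3g. Counted from the start, it also stood at -26 and -123 in Mmp7 and at -61 in Defa30. On the opposite strand it stood at -161 in Reg3g. Of 32851 RefSeq promoters, 12.4% held TATAAA in their upstream window. CTTTGAT stood 54 bases before the start in Reg3g and directly before it in Reg3a. On the opposite strand it stood at -142 in Defa30, and 3.21% of promoters held it. Another motif, TTCNNNGAA, was found in Reg3b, at 129 bases before the start and outside the printed window, and in Ang4, against 7.02% of promoters.

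Levels are given in normalized TPM as labelled by the authors, a signal scaled for transcript length, so that genes can be compared with each other. Column totals ran from 559570 in sham control 6 to 1404340 in sham control 1, with unknown read depth. Stroke mouse 6 had 30060 genes above 0, compared with 20626 to 23947 in the other 11 mice. The mean log2 value of 8 B cell marker genes was 7.27 in stroke mouse 5 and between 8.19 and 8.57 in the others. Epcam, an adhesion molecule of epithelial cells that B cells lack, ran from 1.53 in sham control 6 to 177 in sham control 2. In such bulk samples, fewer cells of a type and less RNA per cell cannot be told apart.

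Across the 12 mice, Reg3b was the most abundant of the 9 genes with a mean value of 203, above 98.7% of all genes in the table. Reg3g (66.5), Defa24 (41.7), Lyz1 (30.6) and Defa30 (12.9) followed, and the means of Itln1, Reg3a, Ang4 and Mmp7 were 6.05, 2.22, 1.67 and 1.66. The spread between mice was larger than the steps between neighbours in this order. All 9 genes passed the filter of a mean of at least 1 over the 12 mice, and 4 of them, Lyz1, Defa24, Defa30 and Itln1, were at 1 or more in every mouse.

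None of the 9 genes passed adjustment in the comparison of stroke mice with sham controls. The limma test on log2(value + 0.5) found 1 of the 9 genes, Reg3a, at an unadjusted p under 0.05, a gene that passed the filter through its values in sham controls, and 0 at an adjusted p under 0.05. Of all 15624 genes tested, 5.89% had an unadjusted p under 0.05, 4.29% higher and 1.6% lower in stroke mice, and 0.0064% passed adjustment, a single gene, Gm9406, which is named here after its value was seen. The exact permutation test found 0 of the 9 genes at p under 0.05, compared with 6.55% of all genes. The 3 Reg3 genes were lower in stroke mice by at least 1 on the log2 scale, compared with 2.04% of all genes. The groups overlapped for each of the 9 genes, whereas 0.416% of all genes had groups that did not overlap.

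**Figure D1:**
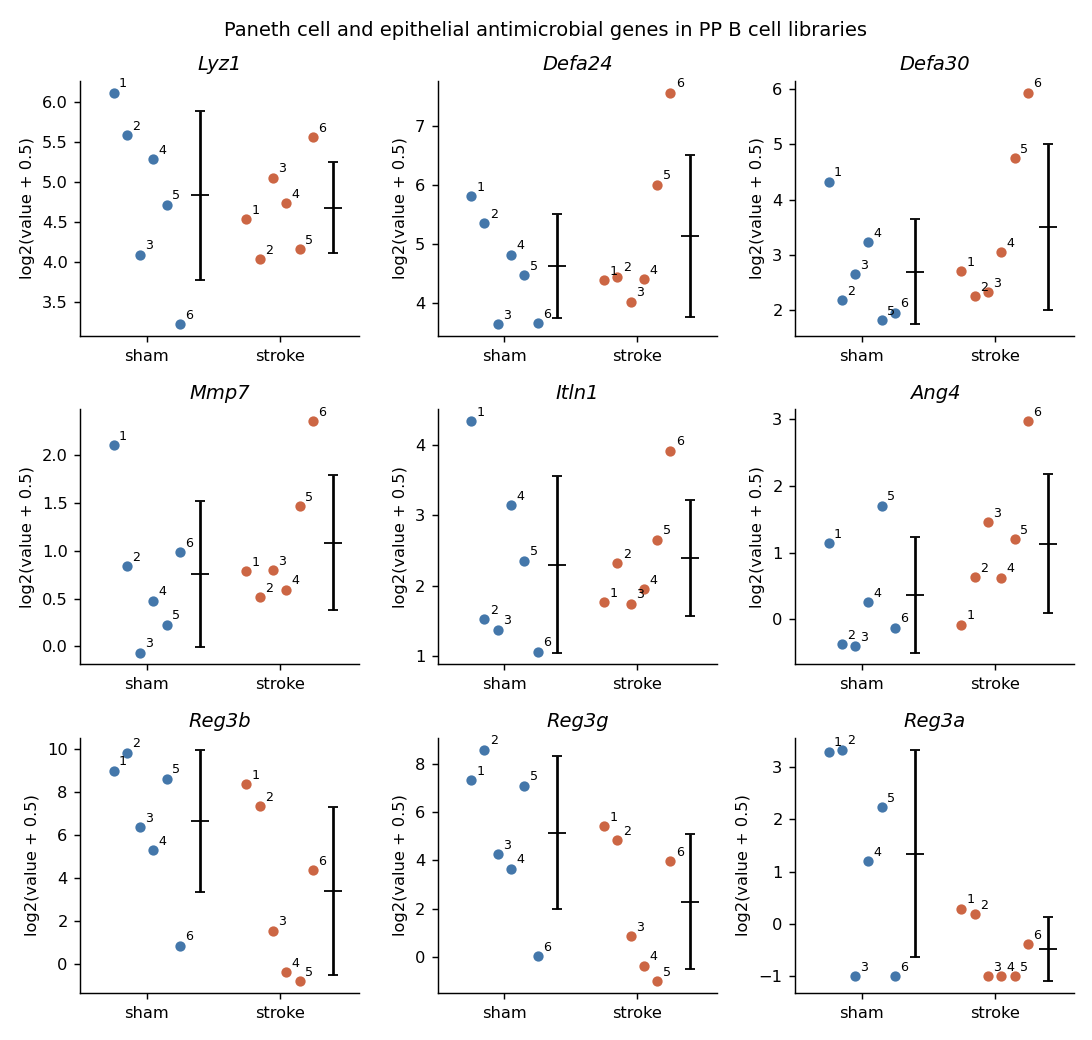
Each panel shows 1 gene, with log2(value + 0.5) on the vertical axis, 6 sham controls in blue and 6 stroke mice in red, the replicate number beside each point, and a bar for the mean ± SD of the group. Stroke mouse 6 is the highest stroke mouse for Lyz1, Defa24, Defa30, Mmp7, Itln1 and Ang4, whereas stroke mice 1 and 2 are the highest for Reg3b, Reg3g and Reg3a.

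Among the Reg3 lectins, Reg3b spanned the widest range. In sham controls its value ran from 1.31 in mouse 6 to 906 in mouse 2 with a median of 237, and in stroke mice from 0.0748 in mouse 5 to 327 in mouse 1 with a median of 11.2. Sham controls 1, 2 and 5 were all above the highest stroke mouse, sham control 6 was below 4 of the stroke mice, and the groups overlapped. The log2 fold change was -3.26 (SE 1.89, 95% confidence interval -7.36 to 0.85), with an unadjusted p of 0.110 and an adjusted p of 0.789 in limma and p = 0.152 in the exact permutation test.

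Reg3g ran from 0.520 to 385 in sham controls, with a median of 77.5, and from 0 to 42.3 in stroke mice, with a median of 8.25. The highest sham control was again mouse 2, the highest stroke mouse was again mouse 1, and sham controls 1, 2 and 5 were above all stroke mice. Its log2 fold change was -2.86 (SE 1.55), with an unadjusted p of 0.0888 and an adjusted p of 0.789 in limma and an exact permutation p of 0.128.

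Reg3a had low values, from 0 to 9.60 in sham controls with a median of 3.01 and from 0 to 0.728 in stroke mice with a median of 0.133. Its mean was 4.16 in sham controls and 0.273 in stroke mice, 0 of which reached 1, so that Reg3a passed the filter through the sham controls alone. It was at 0 in sham controls 3 and 6 and in stroke mice 3, 4 and 5, and the other 4 sham controls were above every stroke mouse. Its log2 fold change of -1.83 (SE 0.77) had an unadjusted p of 0.0339 and an adjusted p of 0.789 in limma, and an exact permutation p of 0.0736. This call was lost with a pseudocount of 0.1 (unadjusted limma p of 0.0737) and when any of sham controls 1, 2 and 5 or stroke mice 3, 4 and 5 was left out, with limma p between 0.0615 and 0.0787. Without sham control 6 the limma fold changes were -4.42 for Reg3b, -3.89 for Reg3g and -2.30 for Reg3a, with unadjusted p of 0.0258, 0.0153 and 0.00703 and adjusted p of 0.304, 0.304 and 0.293. Without stroke mouse 1, Reg3b and Reg3g had unadjusted limma p of 0.0386 and 0.0482.

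Of the Paneth granule genes, Lyz1 had a narrow range. It ran from 8.85 in sham control 6 to 68.6 in sham control 1 with a median of 32.1, and from 15.9 in stroke mouse 2 to 46.6 in stroke mouse 6 with a median of 24.4. The stroke range lay inside the sham range. The log2 fold change was -0.15 (SE 0.45, 95% confidence interval -1.13 to 0.82), with an adjusted limma p of 0.946 and an exact permutation p of 0.760, and its sign turned to 0.10 without sham control 1.

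Defa24 ran from 12.0 in sham control 3 to 55.7 in sham control 1 with a median of 24.7, and from 15.8 in stroke mouse 3 to 189 in stroke mouse 6 with a median of 21.0. Stroke mice 5 (63.7) and 6 were above all sham controls, and the other 4 stroke mice lay between 15.8 and 21.3, inside the sham range. The log2 fold change was 0.51 (SE 0.61), with an adjusted limma p of 0.863 and an exact permutation p of 0.489, and it was 0.03 without stroke mouse 6. Defa30, the other α-defensin, ran from 3.03 to 19.5 in sham controls and from 4.27 to 60.8 in stroke mice, with medians of 4.90 and 6.90. Stroke mice 5 (26.4) and 6 were again above all sham controls. Its log2 fold change was 0.81 (SE 0.66), with an adjusted limma p of 0.814 and an exact permutation p of 0.286, and it was 0.32 without stroke mouse 6.

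The 28 Defa genes of the table were also summed, since their reads overlap. The sum still depends on the division of shared reads, because the values are scaled for length and Defa24 and Defa30 share stretches with more genes than it holds. It ran from 50.9 in sham control 6 to 330 in sham control 1 with a median of 104, and from 72.1 in stroke mouse 2 to 852 in stroke mouse 6 with a median of 99.3. Sham control 1 and stroke mouse 5 (311) lay close together, well below stroke mouse 6, and the medians of the groups lay close together.

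Mmp7 ran from 0.453 to 3.80 in sham controls with a median of 1.09 and from 0.928 to 4.63 in stroke mice with a median of 1.23. Itln1 ran from 1.59 to 19.7 with a median of 3.49 in sham controls and from 2.85 to 14.6 with a median of 3.93 in stroke mice. Ang4 ran from 0.257 to 2.76 with a median of 0.553 in sham controls and from 0.447 to 7.36 with a median of 1.43 in stroke mice. In all 3 genes stroke mouse 6 was the highest stroke mouse, sham control 1 was the highest sham control for Mmp7 and Itln1, and sham control 5 was the highest for Ang4. The log2 fold changes were 0.32 (SE 0.39) for Mmp7, 0.09 (SE 0.56) for Itln1 and 0.77 (SE 0.51) for Ang4, with adjusted limma p of 0.867, 0.973 and 0.791 and exact permutation p of 0.455, 0.890 and 0.197. Without stroke mouse 6 these fold changes were 0.07, -0.21 and 0.40.

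**Figure D2:**
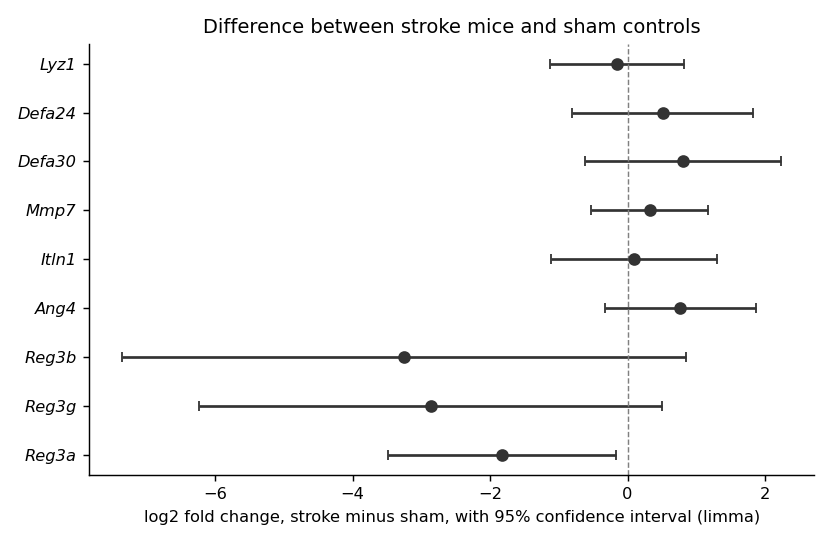
Points show the log2 fold change of each gene, stroke minus sham, over 6 mice per group, and bars show the 95% confidence interval of the limma fit. The interval of Reg3a, from -3.49 to -0.16, is the only one of the 9 that does not include 0, before adjustment for the number of genes tested, and those of Reg3b and Reg3g are the widest.

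The levels of the 9 genes were then compared with the amount of epithelial RNA in each library. A pan-epithelial score was computed as the mean log2 value of 15 epithelial genes, such as Epcam, Krt8, Cdh1, Krt20 and Vil1, none of them among the 9. Its median r was 0.98 with 11 genes of an enterocyte list and 0.96 with 7 genes of a goblet cell list. With 17 genes of a list of other Paneth cell genes it was 0.19, so the score does not stand for all epithelial cells alike. The score ran from 0.44 to 5.76 in sham controls and from 0.47 to 4.48 in stroke mice, and each of its 15 genes was on average lower in stroke mice on the log2 scale, with a median change of -1.50 and 0 of 15 at an unadjusted p under 0.05 in limma. Each of the 15609 other tested genes was related to the score in the same way, with 100000 permutations and Benjamini-Hochberg adjustment over all of them.

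Reg3b, Reg3g and Reg3a were correlated with the pan-epithelial score. Over the 12 mice, Pearson's r was 0.95 for Reg3b (adjusted permutation p = 0.00127), 0.96 for Reg3g (adjusted permutation p = 0.00177) and 0.87 for Reg3a (adjusted permutation p = 0.00566), against 12.4% of all genes with a positive r that passed. Spearman's rho was 0.92, 0.91 and 0.92, with adjusted permutation p of 0.00193, 0.00251 and 0.00279. Within sham controls r was 0.96, 0.96 and 0.92, and within stroke mice it was 0.96 for all 3. Without the 2 mice farthest from the median score, sham control 6 and stroke mouse 4, it was 0.93, 0.95 and 0.87. With every library rescaled to the same total, r was 0.95, 0.96 and 0.86. In 4 mice, sham control 6 and stroke mice 3, 4 and 5, the score was at most 1.11, and in the other 8 it was at least 2.83. Among those 8 mice alone, r was 0.85 for Reg3b, 0.90 for Reg3g and 0.88 for Reg3a, with exact permutation p of 0.00858, 0.00375 and 0.00496.

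With the score as a covariate, the limma log2 fold changes were -0.60 for Reg3b, -0.64 for Reg3g and -0.85 for Reg3a (unadjusted p of 0.414, 0.216 and 0.0802 and adjusted p of 0.973 for each). In this fit the stroke and sham means of the 3 Reg3 genes lay closer together. Read within a mouse, the ratio of Reg3b to Epcam ran from 0.854 to 7.69 in sham controls and from 0.0200 to 7.51 in stroke mice, so the groups overlapped. It was below 1 in sham control 6 and in stroke mice 3, 4, 5 and 6.

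Among the 5 genes most like Reg3b after each group's mean was subtracted were Chp2, Prap1, Alpi and Enpp3, with r from 0.98 to 0.99 over 12 mice. Alpi (intestinal alkaline phosphatase) is an enzyme of the absorptive enterocyte and stood on the enterocyte list. All 11 genes of the enterocyte list and all 7 tested genes of the goblet cell list had negative log2 fold changes, with medians of -1.77 and -1.40, against 0.01 for all genes, and 0 of these 18 had an unadjusted p under 0.05 in limma.

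**Figure D3:**
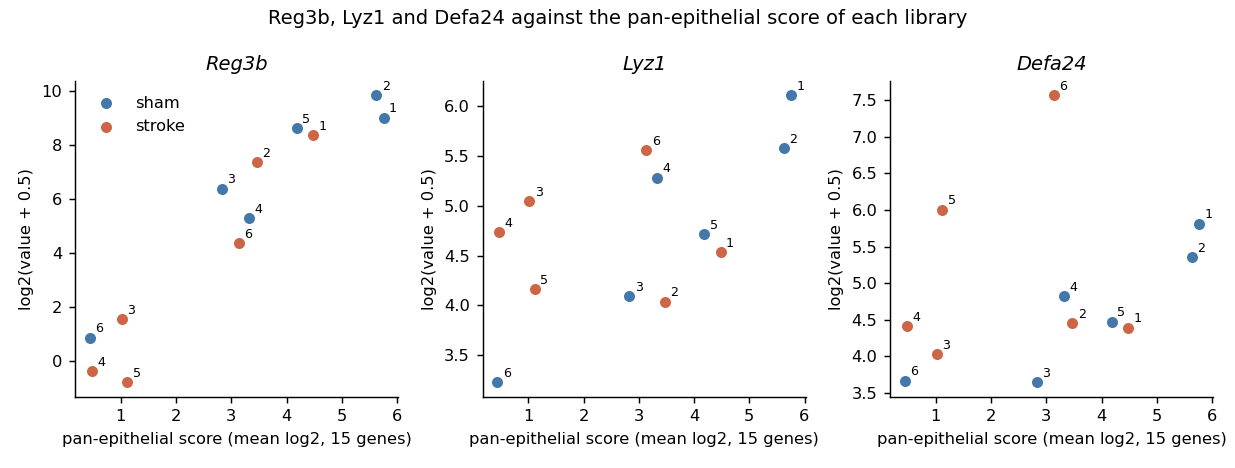
The horizontal axis gives the pan-epithelial score of each mouse (mean log2 value of 15 genes) and the vertical axis log2(value + 0.5) of Reg3b, Lyz1 or Defa24, with sham controls in blue, stroke mice in red and replicate numbers beside the points. Reg3b rises along the score in both groups (r = 0.95), whereas stroke mice 5 and 6 have the highest Defa24 values at scores of 1.11 and 3.14.

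The α-defensins, Mmp7, Itln1 and Ang4 had smaller correlations with the pan-epithelial score over the 12 mice, none of which passed adjustment, with r of 0.29 for Defa24, 0.02 for Defa30, 0.13 for Mmp7, 0.38 for Itln1 and -0.06 for Ang4 (adjusted permutation p from 0.398 to 0.978). The difference between these correlations and those of the Reg3 genes was not tested. Within sham controls the r of Defa24 with the score was 0.88, and within stroke mice it was 0.12. With Defa24 itself, r over the 12 mice was 0.88 for Defa30, 0.83 for Mmp7, 0.77 for Itln1 and 0.67 for Ang4, with unadjusted permutation p of 0.00068, 0.001, 0.00323 and 0.0175. Spearman's rho was 0.57, 0.56, 0.80 and 0.53, with unadjusted permutation p of 0.0588, 0.0633, 0.00225 and 0.0791. None of them passed adjustment over all genes (adjusted permutation p from 0.966 to 1), and neither did any other gene, at 0% called. Without stroke mice 5 and 6, the mice farthest from the median of Defa24, r was 0.60 for Defa30, 0.64 for Mmp7, 0.75 for Itln1 and 0.19 for Ang4. The relation to Ang4 thus rested on those mice, and those to Defa30 and Mmp7 rested on them in part.

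The genes most like Defa24 by the same measure were Gm45739, Defa22, Defa2, Defa20 and Atp8a1, with r from 0.89 to 0.95. The Defa genes among them share reads with Defa24, and for Gm45739 and Atp8a1 r was 0.74 and 0.44 when every library was rescaled to the same total. Of the 48 genes of a list of other Paneth cell genes, 35 were in the table and 17 passed the filter, and 14 of these 17 had an r with Defa24 above 0.5, compared with 5.51% of all genes. All of the 17 except Sox9 were Defa genes, the family with which Defa24 shares stretches, and the part of shared reads in these correlations was not tested. Of the 17, 11 had a positive and 6 a negative log2 fold change, with a median of 0.31, and 0 had an unadjusted p under 0.05 in limma. The largest was Defa43 at 1.36 (SE 0.96). The stem cell and progenitor genes of the crypt could not be compared as a group, since 2 of 5 passed the filter.

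Lyz1 was set beside Lyz2, with which it shares reads. The value of Lyz2 was between 1.47 and 4.13 times that of Lyz1 in every mouse. Other ratios had wider ranges, from 2.08 to 9.97 for Defa24 to Defa30 and from 0.485 to 4.06 for Defa24 to Lyz1. The ratio of Defa24 to Reg3b ran from 0.0445 to 853. Over the 12 mice r of Lyz1 was 0.85 with Lyz2 (unadjusted permutation p = 0.00033, rho 0.77, adjusted permutation p = 0.148 over all genes related to Lyz1 and 0.0163 over all genes related to Lyz2), 0.60 with the pan-epithelial score (adjusted permutation p = 0.132, rho 0.50) and 0.59 with Defa24 (unadjusted permutation p = 0.0428, adjusted 0.253). Without sham controls 1 and 6, r with Lyz2 was 0.64. Within sham controls Lyz1 had an r of 0.93 with the score, 0.95 with Lyz2 and 0.96 with Defa24, and within stroke mice these were -0.06, 0.55 and 0.46. Against Lyz1 as against Defa24, 0% of all genes passed adjustment.

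Only some of the genes most like Lyz1 are given here, named after their values were seen. They included Msr1 (a macrophage scavenger receptor), Csf1r (the receptor of the macrophage growth factor CSF-1) and C1qc (a chain of complement C1q). Their r over the 12 mice was 0.95, 0.94 and 0.91, with an adjusted permutation p of 0.144 for each, and 0.92, 0.87 and 0.81 with every library rescaled to the same total. Csf1r ran from 4.33 in sham control 6 to 21.1 in sham control 1, and from 5.51 in stroke mouse 5 to 13.2 in stroke mouse 6. The other neutrophil and macrophage markers that were tested had lower correlations with Lyz1, with r of -0.21 for Cd68, -0.21 for Cxcr2 and 0.04 for Itgam. In sham control 6, the lowest mouse for Lyz1, Cxcr2 (4.33) and Itgam (4.55) were at their highest among sham controls. Ly6g was at most 0.522 and Adgre1 at most 1.44 in any mouse. The summed level of that list of 8 genes was 25.4 to 41.7 in sham controls and 23.2 to 36.6 in stroke mice. Its part in the Lyz1 values was not tested, and 34.2% of the Lyz1 stretches cannot be told from Lyz2.

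**Figure D4:**
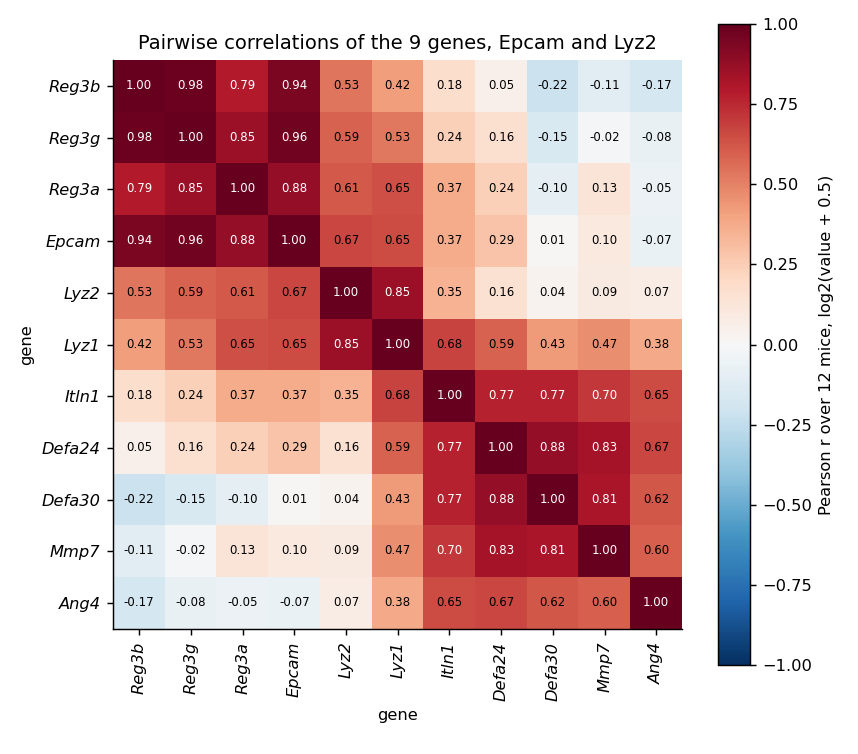
The grid gives Pearson's r over 12 mice between log2(value + 0.5) of each pair of genes, from -1 (blue) to 1 (red), for the 9 genes with Epcam and Lyz2. Reg3b, Reg3g and Reg3a form a block with Epcam (r of 0.79 to 0.98), and Defa24, Defa30, Mmp7, Itln1 and Ang4 form another (r of 0.60 to 0.88).

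Genes of the pathways that induce epithelial antimicrobials were read from a list of 16, of which 12 passed the filter. Of the 12, 3 were lower in stroke mice at an unadjusted limma p under 0.05, compared with 1.6% of all genes, and 0 passed adjustment. None of the 12 was higher at such a p, although 4 had a positive log2 fold change. The 3 lower genes were Nos2 (inducible nitric oxide synthase), Duox2 (a dual oxidase that makes hydrogen peroxide at the epithelial surface) and Duoxa2 (its maturation factor). Their means were 5.75, 3.61 and 3.62 in sham controls, whereas no stroke mouse was above 0.953, 1.02 and 0.541, so these 3 genes also passed the filter through the sham controls alone, which favours calls in the lower direction. Nos2 ran from 0.0939 to 22.3 in sham controls, with a median of 2.41, and from 0.0481 to 0.953 in stroke mice, with a median of 0.217, with a log2 fold change of -1.90 (SE 0.73). Duox2 and Duoxa2 had log2 fold changes of -1.65 (SE 0.66) and -1.73 (SE 0.70). The adjusted limma p was 0.789 for all 3, and the exact permutation p was 0.0390, 0.0325 and 0.0411. All 3 were highest in sham control 2, the mouse with the highest Reg3b, and their r with Reg3b over the 12 mice was 0.73, 0.70 and 0.71 (adjusted permutation p of 0.0421, 0.0569 and 0.0525). Il22ra1, the epithelial chain of the IL-22 receptor, had an r of 0.91 with Reg3b and a log2 fold change of -0.97 (SE 0.70, adjusted p = 0.806 in limma). Il22 itself did not pass the filter, and Stat3 and Myd88, which B cells also express, were at least at 149 and 9.54 in every mouse.

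Of 10 other mucosal antimicrobial genes in the table, 4 passed the filter, and all 4 had negative log2 fold changes. Lypd8, a protein that keeps flagellated bacteria from the epithelium, had the largest at -2.47 (SE 1.38, adjusted p = 0.789 in limma) and an r of 0.96 with Reg3b. Lyz2 had -0.22 (SE 0.58), Slpi, a secreted protease inhibitor, had -0.11 (SE 0.39), and Pglyrp1, a peptidoglycan recognition protein, had -0.54 (SE 0.38). S100a8, S100a9, Camp and Ngp, proteins of neutrophil granules and cytosol, were at most at 0.524, 1.44, 1.14 and 0.707 in any mouse. Ltf (lactoferrin), of the same list, reached 2.98 in stroke mouse 1. Of the follicle-associated epithelium and M cell list, Ubd, a ubiquitin-like protein, was 1 of the 4 genes tested and had a log2 fold change of -1.85 at an unadjusted limma p of 0.0224, with an exact permutation p of 0.0238 and an adjusted limma p of 0.789. The summed level of the pancreatic acinar list was at most 10.7 in any mouse.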

How the data were processed

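The authors sequenced bulk RNA from PP B cells of 6 sham controls and 6 stroke mice, grouped by the treatment label, 1 library per mouse. The time after surgery, the age and the sex come from the methods of the study. Nothing in the sources used here states that mice were pooled. Per the methods and the submitters' processing notes, the authors used FastQC for read quality, Trimmomatic 0.39 for trimming, kallisto 0.48.0 for quantification on Ensembl release 102 transcripts (GRCm38) and sleuth 0.30.0 for testing in R 4.1.2. The authors deposited 1 signal value per gene and mouse, which they call normalized TPM. The column totals differ, so these are not plain TPM, which the design of the tests had assumed. The same test on the log scale was kept, but its results depend on the scaling between mice. With the same total in every mouse, 556 genes instead of 920 had an unadjusted p under 0.05 in limma. Read depth is unknown, so counting error could not be estimated, and p-values measure the spread between mice.

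Here, values were transformed to log2(value + 0.5). Genes averaging at least 1 over the 12 mice, 15624 in all, entered limma 3.58.1 (R 4.3.3), stroke minus sham, with Benjamini-Hochberg adjustment over all genes. The pseudocount makes fold changes of low genes smaller than they are. The two-sided exact permutation test used each of the 924 ways to assign the mice, and its smallest possible p was 0.0022. Relations over mice were tested two-sided with 100000 permutations (Python 3.11.15, numpy 2.4.6, scipy 1.17.1), against the pan-epithelial score, Defa24, Lyz1, Reg3b and Lyz2. Transcript stretches of 31 bases and positions came from GENCODE M21 on GRCm38, and upstream sequences from RefSeq on GRCm38.p6, which held no entry for Defa24. Both statistical procedures were tested on simulated data.

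The genes named are the 9 members, genes of 13 other lists of cell type markers and pathways, and the 5 genes most like Defa24 and Reg3b, of which 1 is not reported here. The members, the lists and the rule were chosen with earlier results of these data known. Genes named outside the rule are marked. Alternatives were other pseudocounts, filters and scalings, sample quality weights, an intensity trend, the pan-epithelial score as a covariate, the replicate number as a block and leaving out each mouse. Leaving out both mice numbered 6, or sham controls 1 and 2, was added after the data were seen.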

Additional observations from a re-analysis of the deposited data

Results flagged for a closer look

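In 7 of the 18 groups of 6 mice formed by the 9 genes, 1 mouse stood apart from the others by Dixon's test on the deposited values. The rate of about 1 in 20 groups for this test holds for normally distributed values. The 18 groups also share the same mice, so the 7 cannot be compared with that rate. Stroke mouse 6 was the high mouse for Defa24 at 189, Mmp7 at 4.63, Itln1 at 14.6 and Ang4 at 7.36. Sham control 1 was the high mouse for Defa30 at 19.5, Mmp7 at 3.80 and Itln1 at 19.7. On the log2 scale used for the tests, 0 of the 18 groups had such a mouse. Stroke mouse 6 is also the library with 30060 genes above 0, and sham control 1 is the one with the highest total, and the part of these properties in the values was not tested.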

How the results depend on the processing

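No member had an adjusted p under 0.05 in any alternative, and the smallest adjusted p was 0.293, for Reg3a without sham control 6. Reg3b, Reg3g and Reg3a kept a negative and Defa30, Mmp7 and Ang4 a positive log2 fold change in every alternative in which they were tested. The number of genes at an unadjusted p under 0.05, 920 as reported, was 1768 with no filter, 556 with the same total in every mouse, 1643 with sample quality weights, 1697 with both mice numbered 6 left out, and from 686 to 2421 with 1 mouse left out, the highest without sham control 6. The number of members at an unadjusted p under 0.05, 1 as reported, was 0 with a pseudocount of 0.1, when only genes at 1 or more in all mice were kept (4 members tested), with the pan-epithelial score as a covariate and with sham controls 1 and 2 left out (8 members tested, since Reg3a then failed the filter), 2 with sample quality weights, 3 with both mice numbered 6 left out, and from 0 to 3 with 1 mouse left out. The single gene with an adjusted p under 0.05 was not called in most fits: 0 genes passed in 18 of 25 alternatives, against 3 with sample quality weights and 2 without sham control 1. Lyz1 turned to 0.25 with the covariate and to 0.35 with sham controls 1 and 2 left out, and ran from -0.48 to 0.10 with 1 mouse left out. Defa24 turned to -0.16 with both mice numbered 6 left out. Itln1 turned to -0.077 with sample quality weights and to -0.46 with both mice numbered 6 left out, and ran from -0.21 to 0.50 with 1 mouse left out. The cause was not tested for any of these. The same total in every mouse moved the median of all genes to 0.13. The share of called genes that were higher in stroke mice, 72.8% as reported, was 58.8% with median-of-ratios scaling, 60.4% with quantile normalization and 46.2% without sham control 6. The replicate numbers were not taken to pair the mice, since the labels do not say what a number stands for. However, deviations of same-numbered mice correlated above 0.1 in 5 of 6 pairs, with a mean of 0.21 against -0.04 for other pairs. The main tests do not take such shared variation into account. With the number as a block, 1438 genes had an unadjusted p under 0.05, and Reg3a remained the 1 member, at a limma p of 0.0148 (adjusted 0.519). Reg3b and Reg3g then had unadjusted limma p of 0.0637 and 0.0640 (adjusted 0.549 for both). Without read counts, the precision of values near 0, as for Reg3a, cannot be given.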

Other observations

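Lyz2 had its own neighbours, named here after their values were seen. Over the 12 mice its r was 0.99 with both Cebpa, a transcription factor of myeloid cells, and C1qa, and 0.97 with C1qb (adjusted permutation p of 0.0144 for each, against 11.6% of all genes with a positive r that passed). C1qa ran from 1.78 to 30.7 in sham controls and from 3.79 to 18.7 in stroke mice, so the groups overlapped.

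The ratio of Reg3b to Reg3g ran from 2.35 to 4.42 in sham controls. It was 7.73 and 5.71 in stroke mice 1 and 2, and 1.81, 0.951 and 1.32 in stroke mice 3, 4 and 6, whereas Reg3g was listed at 0 in stroke mouse 5. Sham controls 4 and 6, in which Reg3g was also below 15.2, had ratios of 3.19 and 2.52. The difference was not tested.

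Of the lists of other cell types, the T cell list had 7 genes tested, the neutrophil and macrophage list 4, the pancreatic acinar list 3, and the endothelial and the crypt stem and progenitor lists 2 each, with 0 at an unadjusted limma p under 0.05. Of 8 B cell genes, 1 had such a p, Cr2 (complement receptor 2), with a log2 fold change of -0.83 and an adjusted limma p of 0.789. Its exact permutation p was 0.00433, and 0.608 after adjustment. Fcer2a, of the same list, had a log2 fold change of -0.72 and an unadjusted limma p of 0.0586. The exact permutation p of Fcer2a was 0.0108, and 0.645 after adjustment.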
